A study of Mus musculus with 8 samples.

Results

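The genes described here are 10 genes of absorption and hormone release in the small intestine: Slc10a2, Fabp6, Slc51a, Slc51b and Fgf15 of ileal bile acid recovery, Cubn and Amn of vitamin B12 uptake, Slc34a2 of phosphate uptake, and Guca2a and Guca2b, which encode guanylin peptides. They were taken by gene symbol from a sheet of 48440 gene rows, and all 10 were found. RNA was sequenced from adenomas of the small intestine of 8 mice on a C57BL/6 background, 1 adenoma library per mouse. All 8 mice carried ApcMin/+, a germline allele that truncates the tumour suppressor Apc; 4 had intact Sfn and 4 were ApcMin/+/14-3-3σ-/-, in which both copies of Sfn, the gene of 14-3-3σ, are disrupted. No treatment is given in the labels. Ages were 256 to 282 days in the ApcMin/+ group but 144 to 148 days in the knockout group, and age and genotype cannot be told apart. The labels do not say from which segment of the small intestine an adenoma came, and they name no cell type to which the deletion would be restricted.

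Bile acids that reach the ileum are taken up from the lumen by the apical transporter ASBT (Slc10a2), carried through the enterocyte by the ileal lipid-binding protein (Fabp6) and released to the blood by the heteromeric exporter OSTα-OSTβ (Slc51a and Slc51b). Bile acids in the cell activate the nuclear receptor FXR, which induces Fgf15, a hormone that represses bile acid synthesis in the liver. Vitamin B12 bound to intrinsic factor enters ileal enterocytes through a receptor made of cubilin (Cubn) and amnionless (Amn). Guanylin and uroguanylin are secreted into the lumen and activate guanylate cyclase C, which drives chloride and fluid secretion.

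Sfn, the deleted gene, checked the labels: its normalised read count was between 6585 and 15968 in the ApcMin/+ adenomas and 0 or 1 in the knockout adenomas (log2 difference -12.81, two-sided exact permutation p = 0.0286 over 70 arrangements, the smallest that 4 against 4 allow). Library totals of normalised reads ranged from 34182800 to 46707800, and the depth before normalisation is not given in the sources used here. A knockout column carried the mouse number that the labels give to ApcMin/+ replicate 4, and it is called the unnumbered knockout library. Xist, transcribed from an inactive X chromosome, exceeded 1000 in the unnumbered knockout library and in 2 of the ApcMin/+ libraries, replicates 2 and 3, and was at most 18 in the other 5 libraries. Ddx3y, a gene of the Y chromosome, was at 0 to 2 in the libraries with high Xist and at 1435 to 2132 in the 5 with low Xist. By these genes the 5 libraries with low Xist read as male and the others as female. The column headers of ApcMin/+ replicates 3 and 4 begin with another code than those of the other 6 libraries. That code is read here as a sequencing order, which the headers do not say. Values within the shared order resemble those over all libraries by construction, for a reason given with the processing. Markers of absorptive enterocytes differed among the ApcMin/+ libraries. The mean log2 level of 25 such markers was lowest in ApcMin/+ replicates 2 (12.32) and 3 (12.52), while replicates 1 (14.06) and 4 (14.00) lay among the knockout libraries at 13.62 to 14.20. Their summed level was 290388 to 902933 in the ApcMin/+ and 556062 to 835997 in the knockout libraries. Of 7 fibroblast markers, 7 had a log2 difference above 0 and 0 passed limma's threshold, and their summed level was 29284 to 40820 in ApcMin/+ but 41555 to 84591 in knockout libraries. Likewise 6 of 6 endothelial markers were above 0 (median log2 difference 0.36), 5 of 7 immune (0.11), 5 of 7 goblet (0.19), 0 of 6 smooth muscle (-0.22) and 2 of 10 Wnt-driven adenoma markers (-0.04), and none of them passed. In such bulk tissue, fewer cells of a type and less RNA per cell cannot be told apart. The part of these markers in the differences below was not tested, beyond the values given relative to the enterocyte markers.

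None of the 9 members that could be tested passed the threshold of limma, an adjusted p under 0.05 over all 17523 genes tested, where 0.331% of genes passed, 0.188% higher and 0.143% lower in the knockout. Fgf15 was not tested, because it reached a value of 10 in 2 libraries and at least 4 were required. Before adjustment, Cubn, Guca2a, Slc34a2 and Guca2b were higher in the knockout adenomas at a limma p under 0.05, that is 4 of 9 members (44.4%) against 7.39% of all tested genes, and 0 members were lower, against 11.6% (18.9% in either direction). The same 4 had a log2 difference above 1, which 2.71% of all tested genes had. The members were chosen with results of these data known, so that share is no independent evidence of a direction. Cubn and Guca2a, 2 of 9 members (22.2%), had every knockout library above every ApcMin/+ library, while 5.5% of all tested genes had no overlap in that direction. In the lower direction it was 10.6% of all tested genes. The median log2 difference over all tested genes was -0.07.

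Levels of different genes were compared per kb of annotated exons, because a longer transcript collects more reads. On that scale Guca2b and Guca2a stood far above the other members, with medians of 7130 and 2891 normalised reads per kb over the 8 libraries. The exporter subunits Slc51b and Slc51a followed at 471 and 375 and Amn at 280 reads per kb. These 5 genes kept this order of medians within each genotype. Below them the order depended on the genotype. In the ApcMin/+ adenomas the median per kb was 83.1 for Slc10a2, 49.2 for Slc34a2, 25.1 for Fabp6, 18.8 for Cubn and 4.70 for Fgf15. In the knockout adenomas it was 169 for Slc34a2, 70.7 for Slc10a2, 59.2 for Cubn, 11.5 for Fabp6 and 2.49 for Fgf15. The lowest Guca2a library, at 885.5 reads per kb, lay above the highest of Slc51b, at 692.5, and the lowest of Amn, at 136, just above the highest of Slc10a2, at 135. All other neighbours in the order of medians over all libraries overlapped over the 8 libraries, for example Slc10a2, at 36.9 to 135, and Slc34a2, at 23.9 to 486.

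**Figure D1:**
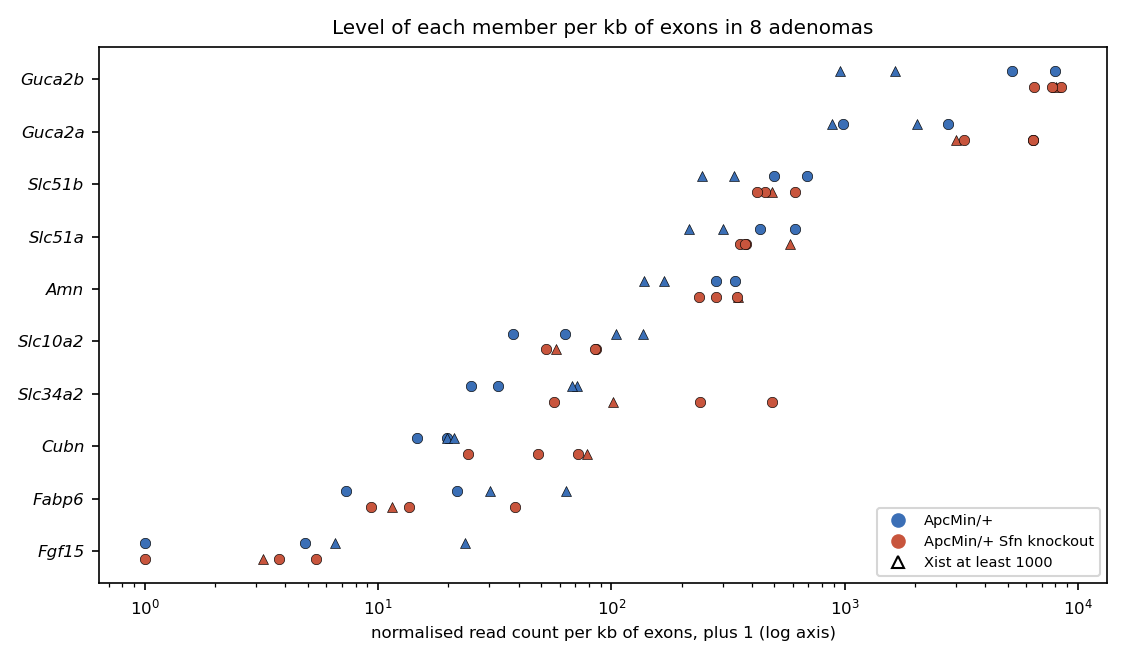
Normalised read count per kb of exons, plus 1, on a log axis, for each of the 10 members, ordered by their median. Each point is 1 adenoma, ApcMin/+ in blue and knockout in red, with triangles for libraries with Xist of at least 1000. Guca2b and Guca2a lie above all other members, and Fgf15 reaches 0 (drawn at 1) in 1 library of each genotype.

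Fabp6 and Fgf15, largely restricted to the ileum in the normal mouse intestine, were close to the floor in adenomas of both genotypes. Fabp6 (chromosome 11, 43596049 to 43601540, GRCm38, minus strand), the cytosolic bile acid carrier, was at 10, 14, 30 and 3 normalised reads in ApcMin/+ replicates 1 to 4. In the knockout it was at 18, 4 and 6 in replicates 2 to 4 and at 5 in the unnumbered library. The highest and the lowest value both lay in ApcMin/+ adenomas, so the groups overlapped fully (log2 difference -0.59, 95% interval -2.19 to 1.01, limma adjusted p = 0.676). Fgf15 (chromosome 7, 144896531 to 144900953), the enterokine induced by bile acids, was at 7, 10, 41 and 0 in ApcMin/+ replicates 1 to 4, and at 5, 0 and 8 in knockout replicates 2 to 4 and 4 in the unnumbered library. Only ApcMin/+ replicate 3 exceeded 10, and the log2 difference, not tested, was -0.94. Replicate 3 was also the library with the most Fabp6 and the most Slc10a2.

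Slc10a2 (chromosome 8, 5083219 to 5105351, minus strand), which encodes the apical sodium-dependent bile acid transporter, was detected in every adenoma. It reached 258, 432, 561 and 153 in ApcMin/+ replicates 1 to 4 (mean 351 ± 181, SD, n = 4). The knockout replicates 2 to 4 were at 351, 350 and 213 and the unnumbered library at 237, a mean of 288 ± 73.1 (SD, n = 4). All 4 knockout values lay inside the ApcMin/+ range, whose 2 highest values were those of replicates 2 and 3, the libraries with the lowest enterocyte markers. The log2 difference of -0.16 had a 95% interval of -1.06 to 0.75 (limma adjusted p = 0.863), and its sign turned among the 5 libraries with low Xist (0.58, -0.14 to 1.29). The promoter of Slc10a2 is shown because it was the only one of 9 member promoters with a match to TTTATTG, a sequence that factors of the CDX family can bind. Windows ran from 250 bases before to 50 after the RefSeq start (GRCm38.p6), and both strands were searched. The promoter held 3 matches, at -175, -62 and -52 relative to that start, while 4.6% of 32851 promoters in the table held at least 1. The bases upstream of the start in both RefSeq and GENCODE (chr8:5105352-5105537, minus strand, read 5′ to 3′) hold 1 of the 3, in capitals, on the opposite strand.
Slc10a2: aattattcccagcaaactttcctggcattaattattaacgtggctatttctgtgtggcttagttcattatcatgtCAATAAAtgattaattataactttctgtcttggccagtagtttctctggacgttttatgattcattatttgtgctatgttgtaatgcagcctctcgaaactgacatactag

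The exporter subunits Slc51a and Slc51b overlapped fully between the genotypes. Slc51a (chromosome 16, 32474504 to 32487879, minus strand), which encodes OSTα, was at 1606, 559, 788 and 1128 in ApcMin/+ replicates 1 to 4. In the knockout it was at 928, 985 and 978 in replicates 2 to 4 and at 1532 in the unnumbered library. Slc51b (chromosome 9, 65412714 to 65422955, minus strand), the gene of OSTβ, was at 491, 172, 237 and 351 in the ApcMin/+ replicates, against 324, 436 and 297 in knockout replicates 2 to 4 and 344 in the unnumbered library. For both genes the knockout values lay between the lowest and the highest ApcMin/+ value, and ApcMin/+ replicates 2 and 3 were the 2 lowest libraries. The log2 differences were 0.19 for Slc51a (95% interval -0.54 to 0.92) and 0.26 for Slc51b (-0.46 to 0.98), with limma adjusted p of 0.773 and 0.684. Both signs turned among the 5 libraries with low Xist, to -0.48 (limma adjusted p = 0.0881) and -0.26. There Slc51a was lower in the knockout without overlap, and 49.5% of all tested genes did not overlap. Both signs also turned when each library was set against its enterocyte markers, to -0.50 and -0.44. On that scale the median of all tested genes was -0.77. The subunits work only as a pair, and their ratio was nearly constant in the ApcMin/+ adenomas. Slc51a had 3.21 to 3.32 times the normalised reads of Slc51b in the 4 ApcMin/+ libraries, and 2.26 to 4.45 times in the knockout libraries, where the unnumbered library was highest and replicate 3 lowest.

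Of 22 listed genes of bile acid and sterol handling, the 5 members included, 16 were tested and 0 passed in either direction in limma. Their median log2 difference was 0.11, with 9 above 0 and 7 below, against the median of -0.07 over all tested genes. Abcg8, a subunit of the sterol exporter that returns plant sterols and cholesterol to the lumen, had the smallest p of the list. It went from 1192 ± 495 to 2111 ± 447 (SD, n = 4 each; log2 difference 0.90, limma adjusted p = 0.188), and its partner Abcg5 differed by 0.74 (limma adjusted p = 0.266). Nr1h4, which encodes the bile acid receptor FXR, was present in all adenomas at 594 to 1388 normalised reads and differed by 0.32 (limma adjusted p = 0.544). Nr0b2, the FXR target gene of SHP, stayed between 9 and 32. Genes of hepatic bile acid uptake and synthesis were at or near 0: Cyp7a1, the rate-limiting enzyme of bile acid synthesis, was at 0 in every library and the uptake transporter gene Slc10a1 at 1 to 6.

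Cubn was higher in every knockout adenoma than in any ApcMin/+ adenoma, while its partner Amn was not. Cubn (chromosome 2, 13276338 to 13491813, minus strand) encodes cubilin, the large extracellular protein that binds intrinsic factor with its vitamin B12. It was at 212, 212, 226 and 154 normalised reads in ApcMin/+ replicates 1 to 4 (mean 201 ± 32, SD, n = 4). In the knockout it was at 261, 800 and 533 in replicates 2 to 4 and at 872 in the unnumbered library, a mean of 616.5 ± 278 (SD, n = 4). The ApcMin/+ adenomas lay close together and the knockout adenomas were spread over 3.34-fold, with replicate 2 just above the ApcMin/+ range. The log2 difference of 1.48 (95% interval 0.65 to 2.32) had a limma p of 0.00317 before and 0.124 after adjustment. It was 1.39 in the 6 libraries that share a sequencing order and 1.41 among the 5 libraries with low Xist. The genotypes did not overlap in either subset, which follows from their separation over all 8 libraries and adds nothing to it. Of all genes tested in those low-Xist libraries, 49.5% did not overlap. Relative to the enterocyte markers Cubn differed by 0.79, with an interval that includes 0. Its upstream sequence is shown for comparison with Slc10a2 (chr2:13491877-13492126, minus strand, read 5′ to 3′, RefSeq GRCm38.p6). It holds no match to the motifs searched.
Cubn: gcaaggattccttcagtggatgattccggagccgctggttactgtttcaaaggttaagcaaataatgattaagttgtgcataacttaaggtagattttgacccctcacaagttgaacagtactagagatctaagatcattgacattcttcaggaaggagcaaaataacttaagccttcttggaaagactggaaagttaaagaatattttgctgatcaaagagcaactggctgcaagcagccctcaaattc

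Amn (chromosome 12, 111271095 to 111276426, plus strand), which encodes the membrane anchor that carries cubilin to the cell surface, was at 576, 232, 284 and 476 in ApcMin/+ replicates 1 to 4. The knockout replicates 2 to 4 were at 476, 588 and 403 and the unnumbered library at 595. The 4 knockout values lay in the upper part of the ApcMin/+ range or slightly above it, and ApcMin/+ replicates 2 and 3 were lowest. The log2 difference was 0.47 (95% interval -0.21 to 1.16, limma adjusted p = 0.420). Its sign turned among the 5 libraries with low Xist (-0.12) and relative to the enterocyte markers (-0.23), where the median of all tested genes was -0.77. Cubn had 0.324 to 0.914 times the normalised reads of Amn in the ApcMin/+ and 0.548 to 1.47 times in the knockout libraries, so the ratios overlapped.

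Of 18 listed genes of B12 uptake and use, 16 were tested and 0 passed, with a median log2 difference of -0.03, 7 above 0 and 9 below. Lrpap1, a chaperone of receptors of the LDL receptor family, went from 2241 ± 25.9 to 1661 ± 133 (SD, n = 4 each) without overlap. Of all tested genes, 10.6% were lower without overlap. The log2 difference of Lrpap1 was -0.44 (limma adjusted p = 0.107). Dab2, an endocytic adaptor, went from 313 ± 71.5 to 452 ± 27 without overlap (0.56, limma adjusted p = 0.175), as 5.5% of all tested genes were higher without overlap. Mmaa, which acts in mitochondrial cobalamin metabolism, differed by -0.40 (limma adjusted p = 0.256). Lrp2, which encodes megalin, the partner of cubilin in the kidney, was at 5 or below in every adenoma.

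**Figure D2:**
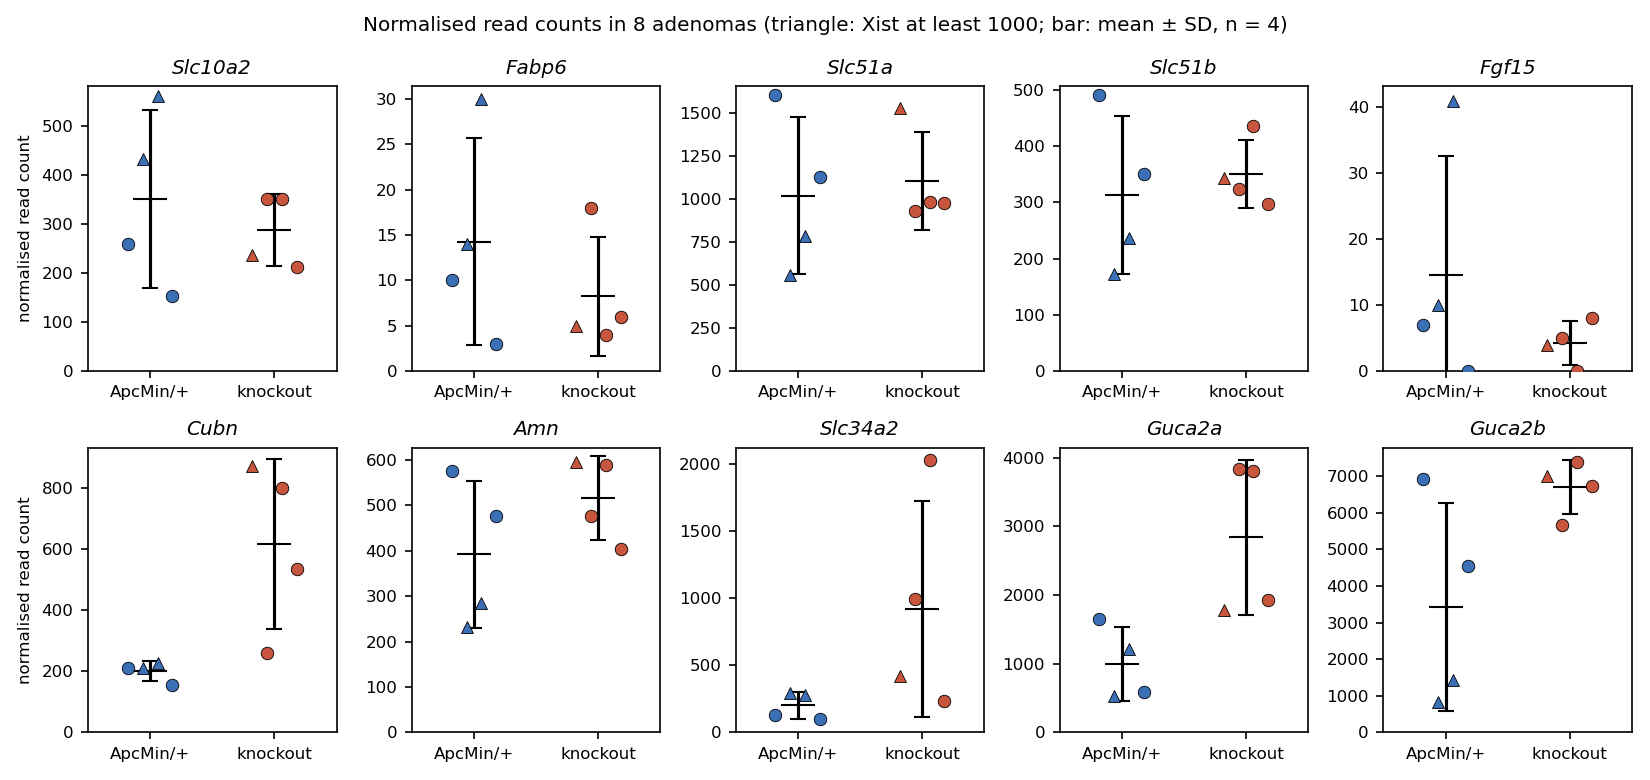
Normalised read count of each of the 10 members, on a linear axis from 0 with its own scale per gene. Each point is 1 adenoma (blue ApcMin/+, red knockout, triangles for Xist of at least 1000), and the black bars are the mean ± SD of 4 libraries. The groups are separate for Cubn (154 to 226 against 261 to 872) and Guca2a (526 to 1652 against 1782 to 3832) and overlap for the other members.

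Slc34a2 had the largest log2 difference of the tested members and the widest spread among the knockout adenomas. It encodes the sodium-phosphate cotransporter NaPi-IIb of the intestinal brush border (chromosome 5, 53038081 to 53071664, plus strand), which in the mouse is most abundant in the ileum. It was at 132, 294, 279 and 100 in ApcMin/+ replicates 1 to 4 (mean 201 ± 99.5, SD, n = 4). The knockout replicates 2 to 4 were at 994, 2028 and 232 and the unnumbered library at 421, a mean of 919 ± 807 (SD, n = 4). Knockout replicate 4 lay inside the ApcMin/+ range and the other 3 above it, over an 8.74-fold range. The log2 difference was 1.87 (95% interval 0.35 to 3.39), with a limma p of 0.0217 before and 0.201 after adjustment. In the 6 libraries that share a sequencing order it was 1.75 with an interval that includes 0 (-0.14 to 3.64). In the 5 low-Xist libraries alone it reached 2.75 without overlap (limma adjusted p = 0.0499). In that subset 13.2% of 16635 tested genes passed and 49.5% did not overlap.

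Of 9 listed genes 8 were tested and 0 passed, with a median of 0.06, 4 above 0 and 4 below. Slc20a1 and Slc20a2, which encode the other common sodium-phosphate transporters, differed by -0.11 and -0.01. Pdzk1, a scaffold of brush border transporters, differed by 1.69 with wide overlap (41 to 1235 against 460 to 1168, limma adjusted p = 0.332).

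Guca2a was higher in all 4 knockout adenomas than in any ApcMin/+ adenoma. Guca2a (chromosome 4, 119637704 to 119639471, plus strand) encodes guanylin, a peptide made by differentiated intestinal epithelium. It was at 1652, 526, 1218 and 585 in ApcMin/+ replicates 1 to 4 (mean 995 ± 538, SD, n = 4). In the knockout it was at 3832, 3803 and 1931 in replicates 2 to 4 and at 1782 in the unnumbered library, a mean of 2837 ± 1134 (SD, n = 4). The gap between the groups was narrow, from 1652 to 1782. The log2 difference of 1.58 (95% interval 0.61 to 2.56) had a limma p of 0.00532 before and 0.137 after adjustment. It was 1.51 within the shared sequencing order, 1.63 among the libraries with low Xist (limma adjusted p = 0.0490, where 13.2% of all tested genes passed) and 0.88 (-0.21 to 1.98) relative to the enterocyte markers.

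Guca2b, the gene of uroguanylin, was even among the knockout adenomas and split among the ApcMin/+ adenomas. It lies 17.1 kb from Guca2a on the same chromosome (119656607 to 119658954, minus strand), and both lie about 14.0 Mb from Sfn. Guca2b was at 6931, 832, 1425 and 4543 in ApcMin/+ replicates 1 to 4 (mean 3433 ± 2844, SD, n = 4). The knockout replicates 2 to 4 were at 5667, 7388 and 6739 and the unnumbered library at 7018, a mean of 6703 ± 740 (SD, n = 4). ApcMin/+ replicates 2 and 3, whose enterocyte markers were lowest, held the low values, and replicate 1 lay inside the knockout range. The log2 difference of 1.43 (95% interval 0.06 to 2.81) had a limma p of 0.0431 before and 0.251 after adjustment. Among the 5 libraries with low Xist it was 0.23 (-0.23 to 0.68), a much smaller value than the 1.63 of Guca2a in the same libraries; the difference between the genes was not tested. Guca2b had 1.17 to 7.77 times the normalised reads of Guca2a in the ApcMin/+ and 1.48 to 3.94 times in the knockout libraries.

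The upstream sequences of this neighbouring pair are shown because their motif content differs. The Guca2a promoter holds 2 matches to AGATAA, which factors of the GATA family can bind, and the Guca2b promoter none. The matches start at -144 and -120 relative to the RefSeq start and read TTATCT on the gene's strand; they are in capitals. Of the 9 member promoters only that of Guca2a held a match, against 11.2% of 32851 promoters. AGGTCA, a core sequence bound by several nuclear receptors, was found in the promoters of Slc51a and Slc51b, 2 of 9, against 16.3% of all. The inverted repeat of AGGTCA and TGACCT with 1 base between them, a form that FXR can bind and that contains that sequence, was in none of the 9 and in 3 of all promoters. Only exact copies were searched for. A sequence this rare would be missing from 9 promoters in almost any case, so its absence does not bear on whether FXR binds them. Both lines read 5′ to 3′ on the strand of the gene (RefSeq GRCm38.p6; Guca2a chr4:119637482-119637703, plus strand; Guca2b chr4:119658955-119659195, minus strand).
Guca2a: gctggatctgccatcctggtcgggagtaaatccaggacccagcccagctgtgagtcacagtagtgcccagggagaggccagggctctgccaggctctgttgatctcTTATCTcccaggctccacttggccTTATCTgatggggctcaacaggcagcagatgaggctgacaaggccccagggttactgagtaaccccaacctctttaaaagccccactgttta
Guca2b: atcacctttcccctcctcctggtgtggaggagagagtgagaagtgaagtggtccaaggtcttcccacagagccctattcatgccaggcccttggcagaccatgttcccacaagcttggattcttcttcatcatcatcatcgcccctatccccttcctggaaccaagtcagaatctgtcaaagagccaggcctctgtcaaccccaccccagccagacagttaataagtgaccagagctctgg

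Around the guanylin peptides, of 12 listed genes of the pathway 11 were tested and 0 passed in limma. Their median log2 difference was 0.31, with 10 above 0 and 1 below; without Guca2a and Guca2b it was 0.26. Gucy2c, the receptor guanylate cyclase C, had nearly the same mean in both genotypes, 5160 ± 1684 and 5111 ± 503 (SD, n = 4 each; log2 difference 0.04, 95% interval -0.46 to 0.54). Pde5a, a phosphodiesterase that degrades cyclic GMP, went from 1997 ± 92.3 to 2562 ± 438 without overlap (0.35, limma adjusted p = 0.221). Of all tested genes, 5.5% were higher without overlap. Prkg2, the cyclic GMP-dependent kinase of the brush border, differed by 0.48 and the chloride channel gene Cftr by 0.23 (limma adjusted p = 0.332 and 0.658).

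**Figure D3:**
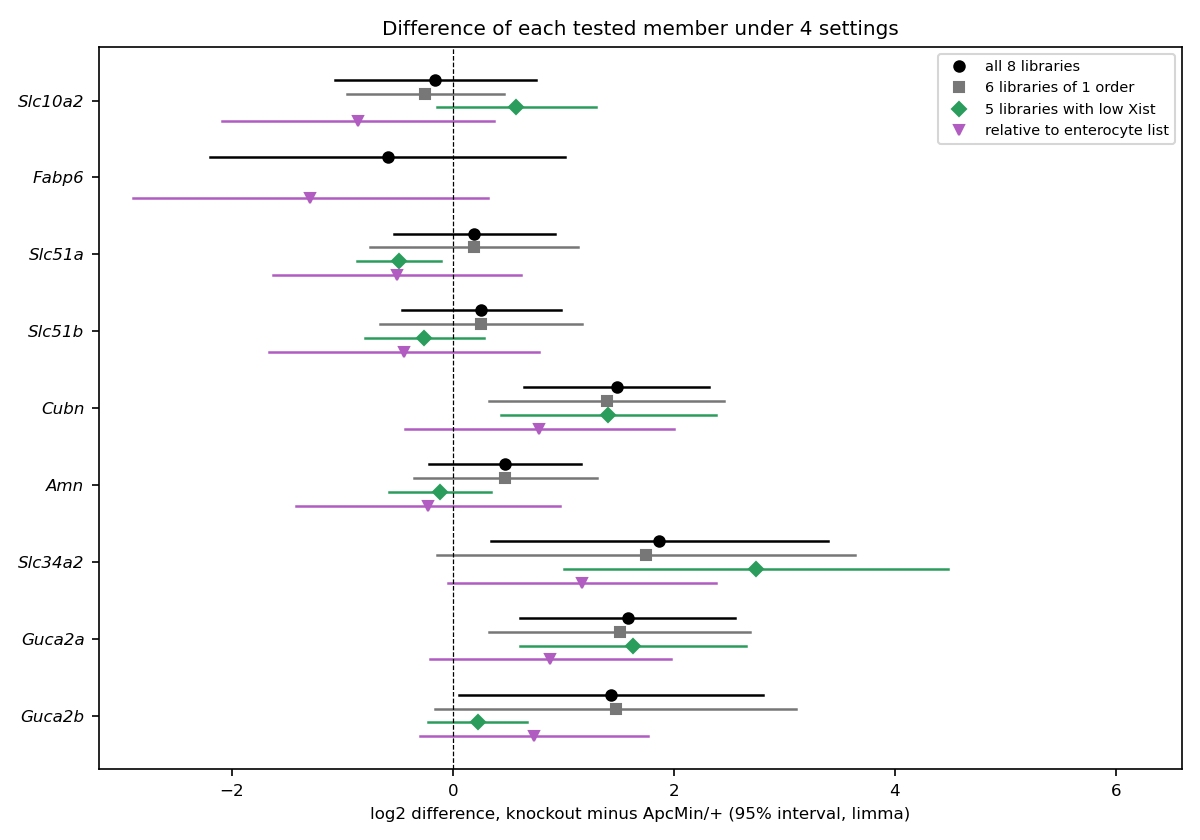
Log2 difference, knockout minus ApcMin/+, of the 9 tested members with 95% intervals from limma, over all 8 libraries (black), the 6 libraries of the shared sequencing order (grey), the 5 libraries with low Xist (green) and relative to the mean of the enterocyte markers (purple). Fabp6 was not tested in the smaller sets. The point values of Cubn, Slc34a2, Guca2a and Guca2b stay above 0 in all 4 settings, of which the shared order resembles all 8 libraries by construction. Their intervals include 0 relative to the enterocyte markers, in the shared order for Slc34a2 and Guca2b, and with low Xist for Guca2b, and Slc10a2, Slc51a, Slc51b and Amn change sign.

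Enterocyte markers moved with several of these genes. Of the 25 markers, all tested, 22 had a log2 difference above 0 and 0 passed, with a median of 0.65. Their mean log2 level was 0.70 higher in the knockout, 13.92 against 13.22. Sis, the disaccharidase gene sucrase-isomaltase, had the smallest p of the list (2.37, limma adjusted p = 0.0817). In the 5 libraries with low Xist, which leave out ApcMin/+ replicates 2 and 3, the median of the enterocyte markers was -0.18, with 5 of 25 above 0, against a median of -0.13 over all tested genes there. Setting each library against its enterocyte mean moved the median of all tested genes to -0.77, and no member passed on that scale. The members then differed by -1.29 (Fabp6) to 1.17 (Slc34a2). The scale takes the same 0.70 from the difference of every gene. It therefore turns Slc51a, Slc51b and Amn, whose differences were smaller than that, below 0. The standing of the members against the median of all tested genes is unchanged: every tested member except Fabp6 and Slc10a2 lay above it on both scales.

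**Figure D4:**
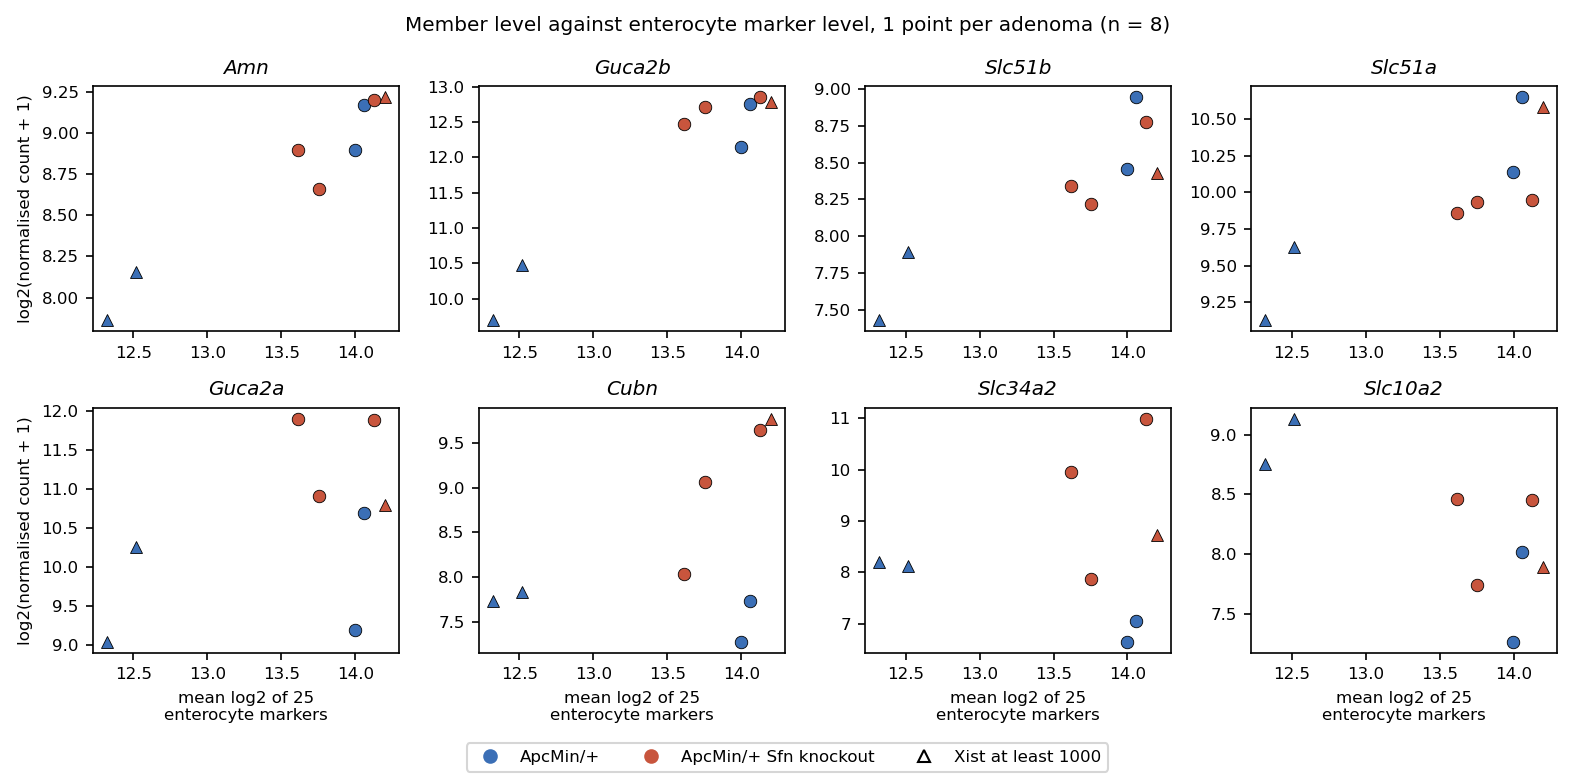
Log2(normalised count + 1) of 8 members against the mean log2 level of 25 enterocyte markers, 1 point per adenoma (blue ApcMin/+, red knockout, triangles for Xist of at least 1000). ApcMin/+ replicates 2 and 3, at 12.32 and 12.52 on the horizontal axis, hold the lowest Amn, Guca2b, Slc51b and Slc51a and the highest Slc10a2.

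The labels give no segment, and genes of regional identity were read beside the members. Gata4, a transcription factor of duodenum and jejunum that the normal distal ileum lacks, was at 2511 to 7962 in the ApcMin/+ and 2916 to 4564 in the knockout adenomas. Of 9 genes of the proximal small intestine, 3 of them also enterocyte markers, all were tested and 0 passed (median 0.26, 6 above 0 and 3 below). Lct, the lactase gene, had the smallest p (1.86, limma adjusted p = 0.231), and Apoa4 and Fabp1 differed by 0.94 and 0.65 with overlap. These are the 3 that are also enterocyte markers. The log2 differences of the other proximal genes ran from -0.31 to 0.35. Of 10 regional transcription factors 0 passed (median 0.12, 6 above 0 and 4 below). Osr2, which encodes a zinc finger factor, went from 62.5 ± 50.3 to 331.5 ± 162.9 (SD, n = 4 each). Its log2 difference was 2.50 (95% interval 1.05 to 3.96, limma adjusted p = 0.131). Only knockout replicate 4, at 104, lay inside its ApcMin/+ range of 21 to 135. Gata5, a GATA family factor, was lower in every knockout library than in any ApcMin/+ library, as were 10.6% of all tested genes. Its log2 difference was -0.35 (limma adjusted p = 0.152). Genes of the colon were low: Car1 was at 7 or below and Hoxb13 at 3 or below in every adenoma, and Retnlb and Aqp8 had log2 differences of 0.10 and 0.09 without passing.

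**Figure D5:**
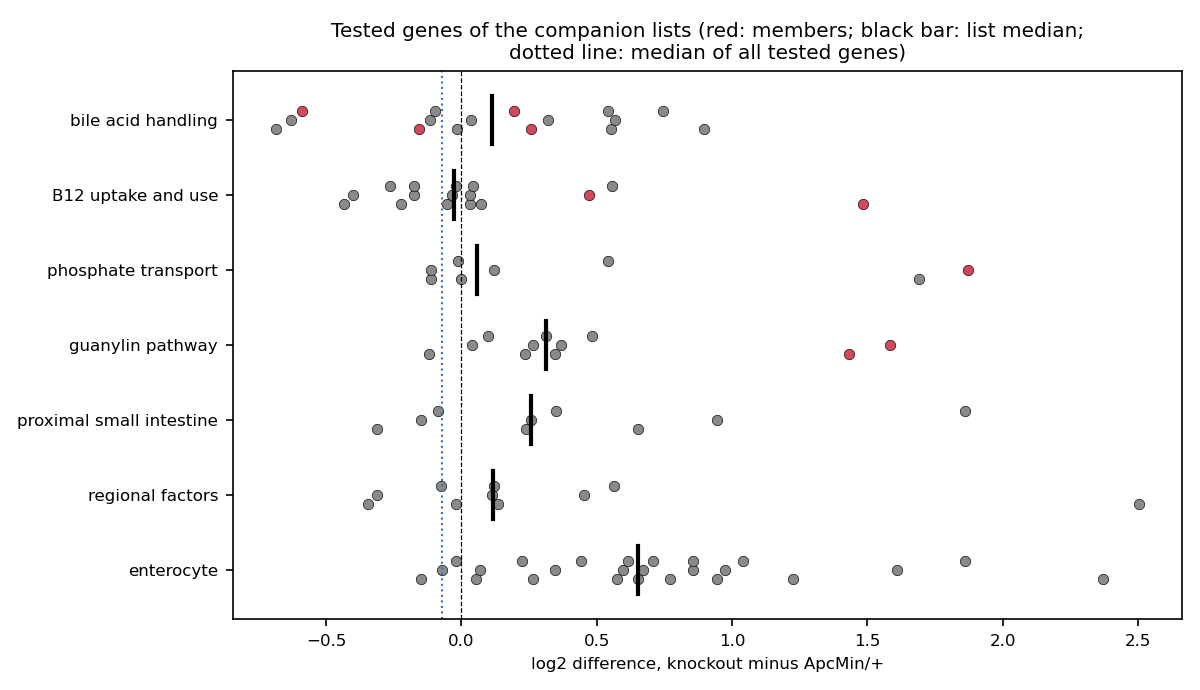
Log2 difference, knockout minus ApcMin/+, of every tested gene in 7 lists, with members in red, the list median as a black bar and the median of all tested genes (-0.07) as a dotted line. The medians run from -0.03 for B12 uptake and use to 0.65 for enterocyte markers, and Cubn, Slc34a2, Guca2a and Guca2b stand at the upper end of their lists.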

How the data were processed

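The authors deposited 1 sheet of normalised read counts, handled here as a score: per the file headers it was made with RUVs, which subtracts factors estimated among replicates. Values are whole numbers. The submitters' processing notes name mm10; not given in the sources used here are the aligner, counter, annotation and RUVs settings. With the original depth unknown, no counting interval can be had. Of 48440 rows, 27 with names turned into dates were left out. Columns that belong to other samples numbered 0.

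Testing used limma 3.58.1 in R 4.3.3 (lmFit, eBayes with trend) on log2(value + 1) for the 17523 genes that reached 10 in 4 or more libraries, with Benjamini and Hochberg adjustment at 0.05. This scale understates fold changes of low genes. Of 6 directions between replicates 1 had been removed upstream (singular value 0.0954 against 53.8 for the largest, over 12052 genes). It contrasts ApcMin/+ replicates 1 and 2 with 3 and 4, so values within the shared order resemble the others by construction. As a covariate it left 5 residual degrees of freedom.

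Members and lists were chosen with earlier results of these data known. By rule, the text names the members, Sfn, the 2 to 4 genes with the smallest p in each companion list and the 3 genes most like each of Slc10a2, Cubn and Guca2b. Xist, Ddx3y, Nr1h4, Nr0b2, Cyp7a1, Slc10a1, Lrp2, Slc20a1, Slc20a2, Gucy2c, Cftr, Gata4, Sis, Car1, Hoxb13, Abcc3, Gif and the hepatocyte markers were named after their values were seen. Positions and exon lengths came from GENCODE release M21 (GRCm38) and promoters from RefSeq GRCm38.p6, which matched 9 of 10 members. The symbols Cblif and Mmut were matched as Gif and Mut. Itgam is not analysed here, and some genes of the lists are not reported here. Other settings tried were a pseudocount of 0.5 or 5, a filter of 50 or none, scaling by median ratio or quantiles, leaving the removed direction uncounted, a covariate for sequencing order or high Xist, the 6 libraries sharing an order, the 5 low in Xist, array weights, robust eBayes, enterocyte-relative values, a threshold of 0.1 and omission of each library.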

Additional observations from a re-analysis of the deposited data

Results flagged for a closer look

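In 22 groups of 4 libraries, for the 10 members and Sfn, 2 held a library set far apart from the other 3 for its group's range; chance flags about 1 group in 20. Fabp6 was at 18 in knockout replicate 2, against 4, 5 and 6 in the other knockout libraries. Slc51a was at 1532 in the unnumbered knockout library, against 928 to 985 in the others. Of 7 hepatocyte markers, 4 were highest in that library: Alb at 3522, Ahsg at 124, Fgb at 104 and Serpina1a at 47. The others were not: Ttr was at 335 there and up to 692 elsewhere, Apoh at 36 and up to 73, and Cyp7a1 at 0 in every library. Summed levels of the 7 hepatocyte markers were 721 to 4168 in the knockout and 1379 to 2512 in the ApcMin/+ libraries; their part in the Slc51a value was not tested.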

How the results depend on the processing

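The number of members that passed was 0 in the reported model and in 21 of its 22 alternatives, a threshold of 0.1 among them, and 2 of 8 tested (Guca2a and Slc34a2) in the 5 libraries with low Xist, where 13.2% of all tested genes passed. The count over all genes, 58, was 35 without a filter, 426 with the removed direction not counted, 18 with sequencing order as a covariate, 13 with array weights, 9 in the shared order and 2198 with low Xist. It ran from 16 (without the unnumbered knockout library) to 329 (without ApcMin/+ replicate 2) when 1 library was left out, with 130 when ApcMin/+ replicate 4 was omitted and 20, 17 and 21 when knockout replicate 2, 3 or 4 was. Scaling moved the balance of 33 higher against 25 lower genes to 37 against 18 (median ratio) or 40 against 20 (quantiles), and it leaned lower without a filter (16 against 19), with array weights (5 against 8), with low Xist (688 against 1510) and without knockout replicate 3 (7 against 10) or 4 (9 against 12). Over the companion lists, members included, 0 genes passed in the reported model, 1 with the removed direction not counted (Lrpap1) and 12 with low Xist, 3 higher and 9 lower, beside the same 13.2%; the cause was not tested. The Sfn difference was -12.76 in the shared order (exact permutation p = 0.0667) and -13.57 with low Xist (p = 0.1), the smallest p those designs allow. Signs turned with low Xist for Slc10a2 (0.58), Slc51a (-0.48), Slc51b (-0.26), Amn (-0.12) and, without a test, Fgf15 (0.42, from -0.94). They turned relative to enterocyte markers, where the median of all tested genes was -0.77, for Slc51a (-0.50), Slc51b (-0.44) and Amn (-0.23). Signs also turned without ApcMin/+ replicate 3 for Slc10a2 (0.12, where omission of other libraries gave down to -0.50) and without ApcMin/+ replicate 2 for Slc51a (-0.058, others up to 0.45). Cubn kept its direction in all 22 settings (0.79 to 1.89, limma adjusted p 0.0509 to 0.665), as did Guca2a (0.88 to 1.88), Slc34a2 (1.17 to 2.75) and Guca2b (0.23 to 1.93). Fabp6 reached the filter in 15 alternatives. No paired analysis was possible because the labels number mice and give no replicate numbers shared between the genotypes. The original depth is unknown, so no limit of detection can be given for genes near the floor such as Fabp6 and Fgf15.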

Other observations

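Genes that vary across the 8 adenomas like a member were ranked among 13044 tested genes with a mean value of at least 50, by Pearson's r of log2(value + 1). The libraries are shared and the ranking picks extremes, so r is a description. Closest to Slc10a2 were the homeobox genes Prrx2 (r = 0.96) and Irx4 (0.96) and the cadherin gene Cdh13 (0.96), with r of 0.89, 0.95 and 0.86 over the 6 libraries left without the 2 farthest from the median. Closest to Cubn were Thoc2, Taok1 and Mier3 (r = 0.99, 0.98 and 0.98), each with a narrow range, such as 2348 to 2550 in the ApcMin/+ and 2801 to 3428 in the knockout libraries for Thoc2. Closest to Guca2b were Trim72, Pmp22 and Bst1 (r = 0.99, 0.98 and 0.98), with 0.80, 0.81 and 0.67 over 6 libraries.

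Genes next to the described pathways separated ApcMin/+ replicates 1 and 4 from all other libraries. Abcc3, which encodes a basolateral exporter of bile acids and conjugates, was at 9088 and 10205 in ApcMin/+ replicates 1 and 4, at 2385 and 2706 in replicates 2 and 3 and at 2832 to 4271 in the knockout adenomas (limma adjusted p = 0.504). Gif, the gene of gastric intrinsic factor, was at 40 and 47 in those libraries and at 3 to 7 in the other 6, too low in most to be tested. Among the 5 libraries with low Xist, Abcc3 differed by -1.54 (limma adjusted p = 0.00837), where 13.2% of all tested genes passed. The only ApcMin/+ libraries in that subset are replicates 1 and 4, and Abcc3 was named after its values were seen. That value is therefore no independent evidence.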
